A study of Rattus norvegicus with 4 samples.

Results

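The 5 dopamine receptor genes, Drd1, Drd2, Drd3, Drd4 and Drd5, were chosen by symbol and followed through single nuclei of the rat ventral tegmental area (VTA), the midbrain region that holds many of the dopamine neurons of the brain. They are 5 of the 32883 genes in the count matrices, and each symbol matched 1 gene identifier. Tissue came from adult Sprague-Dawley rats of 90 to 120 days and 200 to 250 g that had received no experimental treatment, so that no group of animals was treated. There were 2 female and 2 male libraries, each made from the pooled tissue of 3 animals. Nuclei were sorted and their RNA was read with a droplet method that counts molecules by unique molecular identifiers (UMIs) near the 3′ end of transcripts.

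Dopamine receptors are G protein-coupled receptors. The D1 class, encoded by Drd1 and Drd5, couples to stimulatory G proteins and raises cyclic AMP, and the D2 class, encoded by Drd2, Drd3 and Drd4, couples to inhibitory G proteins, lowers cyclic AMP and opens inwardly rectifying potassium channels. On midbrain dopamine neurons the D2 receptor serves as an autoreceptor that slows firing and dopamine release, and dopamine released from dendrites can also reach receptors on neighbouring neurons.

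The promoters of the 2 receptors with enough UMIs for tests, Drd2 and Drd3, are shown to let their base composition be compared. The sequences are from RefSeq on the GRCr8 assembly, not the rn6 build named in the submitters' processing notes, and run from 250 bases before to 50 bases after the annotated gene start. Capitals mark the GC box GGGCGG, the core of sites of the Sp family of factors, searched on both strands. The Drd2 window lies on the plus strand at chr8:58605153-58605452 and the Drd3 window on the minus strand at chr11:70437744-70438043.
Drd2: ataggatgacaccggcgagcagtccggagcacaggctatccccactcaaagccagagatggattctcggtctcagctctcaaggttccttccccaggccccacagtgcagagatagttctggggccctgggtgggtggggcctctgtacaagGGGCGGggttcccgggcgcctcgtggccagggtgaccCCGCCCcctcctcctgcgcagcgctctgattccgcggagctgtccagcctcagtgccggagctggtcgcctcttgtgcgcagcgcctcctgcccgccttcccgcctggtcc
Drd3: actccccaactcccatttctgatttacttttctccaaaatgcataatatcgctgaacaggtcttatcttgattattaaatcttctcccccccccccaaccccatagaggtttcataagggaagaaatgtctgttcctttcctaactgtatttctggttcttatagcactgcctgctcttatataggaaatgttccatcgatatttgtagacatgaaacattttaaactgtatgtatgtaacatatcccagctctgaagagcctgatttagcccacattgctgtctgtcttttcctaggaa
The Drd2 window had a GC content of 67.3%, 19 CpG dinucleotides and 2 GC boxes, and the Drd3 window had 39.3%, 2 CpG and none. Over the 33469 promoters of that table the median GC content was 51.7%, and 33.1% of them held a GC box. The Drd5 window, of a gene with no UMI here, was as rich in GC as that of Drd2, at 67% with 2 GC boxes. The TATA box TATAAA and the homeodomain core TAATTA were in none of the 5 receptor windows, against 14.2% and 5.36% of all promoters. A match is a run of letters and was not tested for binding.

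In all, 20620 of 21606 barcodes were kept, between 3523 and 6564 per library, with a median of 2384 to 3861 UMIs per nucleus, and the libraries shared between 4 and 9 cell barcodes per pair. Nuclei were gated on raw UMIs of genes other than the receptors. Dopamine nuclei had at least 2 UMIs each of Th (tyrosine hydroxylase) and Slc6a3 (the dopamine transporter), GABA nuclei at least 2 of Gad1, and glutamate nuclei at least 2 of Slc17a6 and none of Gad1. A further neuron gate needed at least 1 UMI each of Slc26a7 and Gad2. The 4 glial gates needed at least 1 UMI of each gene named. They were oligodendrocytes (Mog and Mobp), their precursors (Pdgfra), astrocytes (Gja1 and Aqp4) and microglia (Csf1r and C1qa). A nucleus was used if it met exactly 1 gate, which 76.1% did, while 366 met more than 1 and 4571 met none. There were 264 dopamine nuclei, 55 to 74 per library, 96 with Slc26a7 and Gad2, 12 to 31 per library (another 106 also met a second gate), 1085 GABA and 1488 glutamate nuclei. Dopamine markers that the gate does not use (Slc18a2, Ddc, Ret, En1, Pitx3 and Nr4a2) summed to 2164 to 2565 CPM (UMIs scaled to a common total) in dopamine nuclei and 60.9 to 79.3 in GABA nuclei. Nuclei with Slc26a7 and Gad2 held 773 to 1192 CPM of the same markers together with 902 to 1203 CPM of GABA markers.

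Of the 5 genes, Drd2 had 2199 UMIs in kept nuclei, Drd3 528, Drd1 19, Drd4 16 and Drd5 none. Drd2 UMIs were in 902 nuclei, with up to 26 in 1 nucleus, and Drd3 UMIs in 374 nuclei, with up to 8. These totals depend on how well each transcript is caught at its 3′ end and are not levels that can be set against each other between genes. Dopamine nuclei were 1.28% of kept nuclei and held 39.8% of Drd2 UMIs but 1.70% of Drd3 UMIs. Glutamate nuclei, 7.22% of kept nuclei, held 13.5% of Drd2 and 37.3% of Drd3 UMIs.

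Drd2, the autoreceptor gene, was far higher in dopamine nuclei than in every other gate. Its level in the summed dopamine nuclei was 357 and 299 CPM in female 1 and female 2 and 405 and 281 in male 1 and male 2. The nuclei with Slc26a7 and Gad2 came next, at 39.5, 37.6, 137 and 164 CPM in the same order of libraries, a mean of 94.6 CPM that was 145 with stricter gates. GABA nuclei held 36.7, 16.6, 14.3 and 17.6 CPM and glutamate nuclei 26.7, 14.2, 22.1 and 22.1. The ranges of the dopamine, Slc26a7 with Gad2, and GABA nuclei did not overlap one another, those of GABA and glutamate nuclei did, and in nuclei with Slc26a7 and Gad2 both male libraries lay above both female ones. Glia lay lower still, with a mean of 2.59 ± 2.63 CPM (SD, n = 4 libraries) in precursors, 1.81 ± 1.07 in astrocytes, 1.02 ± 0.0708 in oligodendrocytes and no UMI in 918 microglia, whose 3 UMI floor is 2.17 CPM. The precursor, astrocyte and oligodendrocyte ranges overlapped. Neuron markers (Rbfox3, Snap25, Syt1 and Stmn2) summed to a mean of 1108 CPM in precursors. In astrocytes, oligodendrocytes and microglia they summed to 163, 145 and 109 CPM. Whether neuronal RNA adds to the precursor values was not tested. The ratio of the dopamine mean to the GABA mean was 15.7 and to the glutamate mean 15.8, and within single libraries these ratios ran from 9.73 to 28.3 and from 12.7 to 21.1.

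Drd3, a D2-class receptor with high affinity for dopamine, had another order. Glutamate nuclei had the highest mean, with 16.3 and 9.28 CPM in female 1 and female 2 and 17.1 and 13.3 in male 1 and male 2. GABA nuclei had 4.53, 4.47, 9.77 and 2.93 CPM, and dopamine nuclei 1.51, 7.99, 1.48 and 3.16, which rest on 1, 5, 1 and 2 UMIs. Every library had more Drd3 in glutamate than in GABA and in dopamine nuclei, although the ranges of glutamate and GABA nuclei overlapped by the value of male 1. Nuclei with Slc26a7 and Gad2 had 7 UMIs in all, at 0, 12.5, 22.8 and 9.97 CPM, a mean of 11.3 ± 9.38. They were above glutamate nuclei in female 2 and male 1 and below them in the other two, and their range overlapped those of glutamate, GABA and dopamine nuclei. With stricter gates that mean was 1.12 CPM. In glia the mean was 1.93 CPM in precursors, the glial gate with the most neuron markers, and at most 0.648 in the other 3 gates. Each pair of neighbours in the order of Drd3 levels overlapped.

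**Figure D1:**
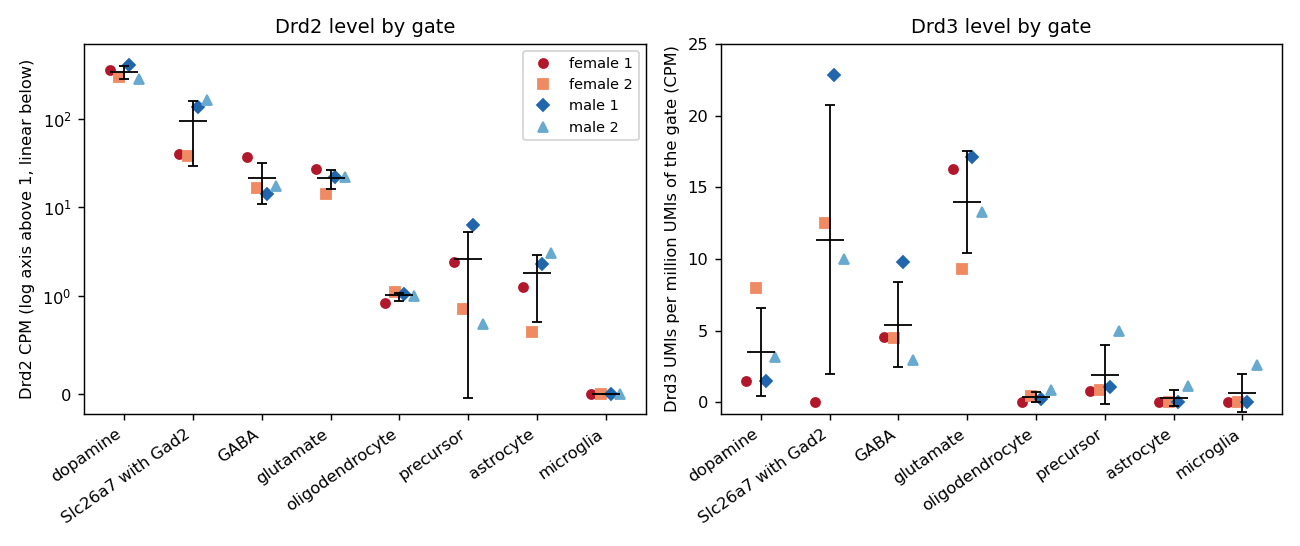
Drd2 (left) and Drd3 (right) levels in CPM of the summed UMIs of each gate, with 1 symbol per library and the mean with its SD over 4 libraries in black. The Drd2 axis is logarithmic above 1 and linear below, and dopamine nuclei lie between 281 and 405 CPM, above all other gates, while Drd3 has its highest mean in glutamate nuclei, at 9.28 to 17.1 CPM, and is higher in nuclei with Slc26a7 and Gad2 in 2 of 4 libraries.

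Differences between gates were tested with edgeR over all 12986 genes that passed its filter, in 1 fit of the 32 sums of gate and library. Drd2 and Drd3 passed that filter, and Drd1, Drd4 and Drd5 did not. In dopamine against GABA nuclei Drd2 differed by a log2 fold change of 4.04 ± 0.173 (SE, edgeR adjusted p = 4.16e-23, higher in 4 of 4 libraries), in a comparison where 26.5% of genes were called. Drd3 differed there by -0.64 ± 0.610 (edgeR adjusted p = 0.502) and was lower in 2 of 4 libraries. Against glutamate nuclei, where 22.5% of genes were called, Drd2 was higher in dopamine nuclei by 4.00 ± 0.162 (edgeR adjusted p = 6.49e-24). Drd3 was lower in dopamine than in glutamate nuclei by a log2 difference of -1.97 ± 0.512 (edgeR adjusted p = 0.00289), in 4 of 4 libraries. Both receptors were therefore called between dopamine and glutamate nuclei, in opposite directions.

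The nuclei with Slc26a7 and Gad2 stood between. Dopamine nuclei exceeded them in Drd2 by a log2 fold change of 2.05 ± 0.249 (edgeR adjusted p = 2.61e-08), in a contrast that called 9.99% of genes. Nuclei with Slc26a7 and Gad2 exceeded GABA nuclei in turn by 2.00 ± 0.356 (edgeR adjusted p = 9.11e-05), where 5.79% of genes were called. This second difference lost its call when male 2 was left out, at 1.32 (edgeR adjusted p = 0.0892), and the 12 to 31 nuclei per library limit it. Both differences cover only nuclei that met 1 gate. They leave out 106 nuclei with Slc26a7 and Gad2 that met another gate, of which 23 met the dopamine gate. Drd3 was called in neither contrast, with -1.42 ± 0.908 (edgeR adjusted p = 0.404) for dopamine minus Slc26a7 with Gad2 and 0.78 ± 0.757 (edgeR adjusted p = 0.705) for the latter minus GABA.

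GABA and glutamate nuclei did not separate in Drd2 and did in Drd3. For Drd2 the log2 difference was -0.05 ± 0.215 (edgeR adjusted p = 0.944), and 2 of 4 libraries were higher in GABA nuclei, in a comparison with 11.8% of genes called. For Drd3 it was -1.34 ± 0.312 (edgeR adjusted p = 0.00161), lower in GABA nuclei in 4 of 4 libraries. DESeq2 gave -1.41 for the latter with an adjusted p of 0.0580, above the threshold of 0.05.

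Oligodendrocyte nuclei served as a reference level outside neurons. The source of the receptor UMIs in them was not tested. Drd2 exceeded that level by a log2 fold change of 7.91 ± 0.232 in dopamine nuclei, where 67.5% of genes were called, by 3.86 ± 0.348 in GABA nuclei, with 75.5% called, and by 3.91 ± 0.323 in glutamate nuclei, with 77.7% called. All 3 had an edgeR adjusted p of at most 1.74e-13. With nuclei kept in every gate they met, the oligodendrocyte level was 3.76 CPM in place of 1.02, and the 3 differences were 6.07, 2.10 and 2.49, each still called. Drd3 exceeded it by 4.61 ± 0.413 in glutamate nuclei (edgeR adjusted p = 5.65e-14) and by 3.27 ± 0.515 in GABA nuclei (edgeR adjusted p = 2.13e-07). In dopamine nuclei the Drd3 excess was 2.63 ± 0.831 (edgeR adjusted p = 0.00488), resting on 9 UMIs in 7 nuclei, and it was not called without female 2 (1.96, adjusted p = 0.130) or with stricter gates (1.78, adjusted p = 0.0817). Without TMM scaling the median of all genes in these 3 contrasts moved from between -0.07 and -0.01 to between 0.28 and 0.39, and in dopamine minus Slc26a7 with Gad2 it moved from 0.09 to -0.04.

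Detection was also counted per nucleus. A Drd2 UMI was found in 222 of 264 dopamine nuclei, 91.2% and 82.1% in female 1 and female 2 and 89.1% and 75.7% in male 1 and male 2. Neuron nuclei are deeper than glia, with a median of 8696 UMIs in dopamine against 2400 in oligodendrocyte nuclei, so each nucleus was also thinned to 2000 UMIs and shallower ones left out, which removed 3050 oligodendrocyte and no dopamine nuclei. The thinned share with Drd2 was then 45.5% ± 4.84 in dopamine nuclei, 15.8% ± 8.92 in those with Slc26a7 and Gad2, 3.38% ± 1.46 in GABA, 3.51% ± 0.878 in glutamate and 0.161% ± 0.0389 in oligodendrocyte nuclei (SD, n = 4 libraries). For Drd3 it was 2.45% ± 0.506 in glutamate nuclei, 0.860% ± 0.490 in GABA, 0.657% ± 0.382 in dopamine and 0.0549% ± 0.0366 in oligodendrocyte nuclei. The Drd2 share was higher in dopamine than in each of the 7 other gates in 4 of 4 libraries, at an exact p of 0.13 (sign flips of the library differences, both tails), the smallest that 4 libraries allow.

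**Figure D2:**
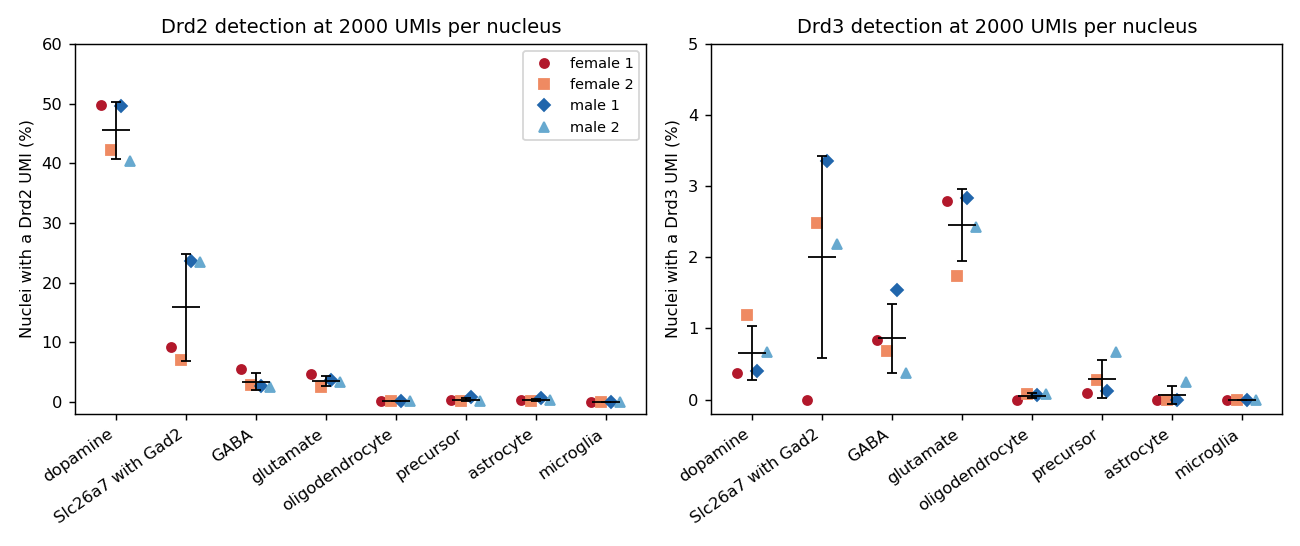
Share of nuclei with a UMI of Drd2 (left) and Drd3 (right) after thinning each nucleus to 2000 UMIs, by gate, with 1 symbol per library and the mean with its SD over 4 libraries in black. Drd2 was detected in 40.4% to 49.7% of thinned dopamine nuclei, and Drd3 in 1.74% to 2.84% of thinned glutamate nuclei.

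Among dopamine nuclei the number of Drd2 UMIs was broad. Over the 4 libraries 42 of 264 nuclei had none, 38 had 1, 52 had 2, 81 had 3 to 5 and 51 had 6 or more. The median was 3 and 2 UMIs in female 1 and female 2 and 4 and 2 in male 1 and male 2, and the highest counts were 12, 12, 26 and 13. Male 1, with the deepest dopamine nuclei (a median of 10227 UMIs), had the most nuclei with 6 or more. Nuclei without a Drd2 UMI were shallower, at a median of 6608 UMIs against 9250 in those with one, and the share of that depth gap in the zeros was not tested. The 10% of dopamine nuclei with the most Drd2 UMIs held 27.4% to 32.6% of them. In GABA nuclei the same share held 79.0% in female 1 and 100% in the other libraries. The 100% is fixed in advance, since only 9.59%, 9.25% and 5.95% of GABA nuclei had a Drd2 UMI in female 2, male 1 and male 2.

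**Figure D3:**
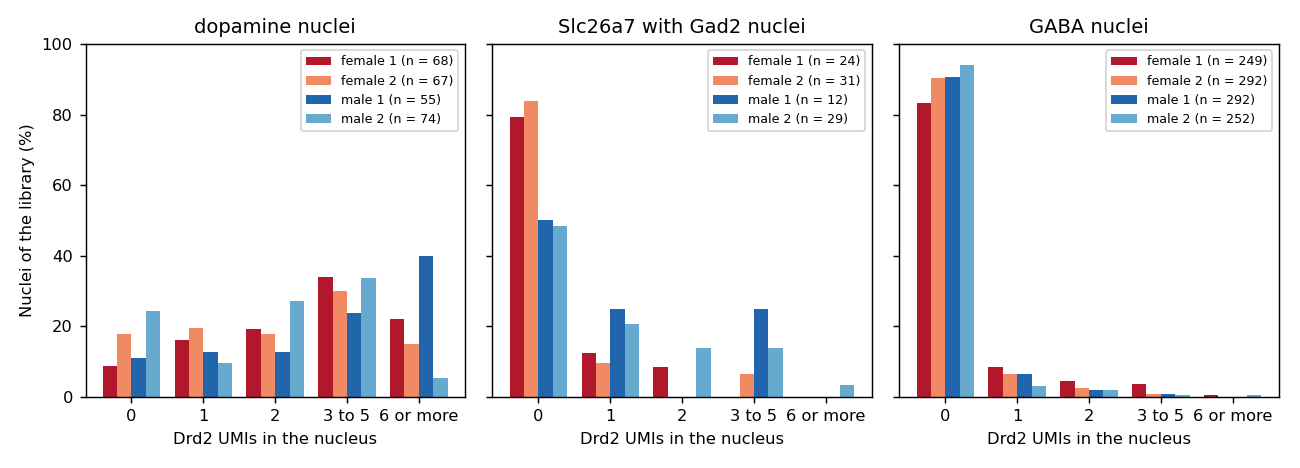
Share of nuclei of each library by their number of Drd2 UMIs, in dopamine nuclei, nuclei with Slc26a7 and Gad2, and GABA nuclei, with 1 bar colour per library and the nuclei per library in the legend. Nuclei with no Drd2 UMI were 8.82% to 24.3% of dopamine nuclei and 83.1% to 94.0% of GABA nuclei.

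Genes known to divide midbrain dopamine neurons into subtypes were used to ask whether Drd2 differs among dopamine nuclei. Of 12 such genes, 6 had at least 10 dopamine nuclei with and without a UMI in every library. Aldh1a1, a retinaldehyde dehydrogenase of one ventral subtype, is the first of them. The Drd2 level was 314, 256, 333 and 226 CPM in nuclei with Aldh1a1 and 388, 330, 469 and 315 CPM in those without, in the order female 1, female 2, male 1 and male 2. The log2 ratio was -0.41 ± 0.0901 (SD), lower in 4 of 4 libraries, at an exact p of 0.13 by sign flips, which cannot be smaller, and 0.375 after Benjamini-Hochberg adjustment over the 6 genes. For Cck, a neuropeptide precursor of dopamine neurons, the Drd2 levels were 391, 333, 412 and 292 CPM with it against 209, 175, 375 and 246 without. Its log2 ratio was 0.55 ± 0.420, higher in 4 of 4 libraries, with the same exact p and adjusted value. The ratios for Calb1, Lmo3, Kcnj6 and Calb2 ranged from -0.24 to 0.09 and had no common sign over the libraries. Sox6, a transcription factor of another subtype, was in 55 dopamine nuclei but as few as 9 in a library, and Drd2 there was 417, 408, 449 and 582 CPM, against 342, 256, 373 and 236 CPM in the nuclei without it. Nuclei with Sox6 were deeper, at medians of 10074.5, 11184, 11812 and 8884 UMIs against 8446.5, 7817, 10167 and 7253. For Cck depth went both ways, with 8879 against 6856.5 in female 2 and 7250 against 9536 in male 2. The sides were not matched on depth for any of these genes. Slc17a6, the vesicular glutamate transporter, was in 28 dopamine nuclei and as few as 6 in a library, and Drd2 was 208 ± 90.0 CPM with it and 351 ± 52.9 without (SD, n = 4 libraries), lower in 4 of 4. Slc32a1 and Gad2, in 11 and 19 nuclei, had no common sign, and Otx2 and Ntsr1 had no UMI in dopamine nuclei. None of these 6 genes was tested. Dopamine nuclei that met a second gate are not in these counts. That leaves out 19 that also met the glutamate gate, which needs at least 2 Slc17a6 UMIs. It also leaves out 23 that met the Slc26a7 and Gad2 gate, so the values for Slc17a6 and Gad2 lack these nuclei.

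Drd2 also followed the dopamine transporter below the limit of the gate. Nuclei with at least 1 Th UMI and under 2 Gad1 UMIs were binned by their Slc6a3 UMIs. The Drd2 level was 32.1 ± 12.3 CPM with no Slc6a3 UMI (762 nuclei) and 154 ± 81.7 at 1 UMI (71 nuclei). It was 291 ± 40.5 at 2 to 3, 303 ± 33.8 at 4 to 7 and 335 ± 42.2 at 8 or more (SD, n = 4 libraries). Every library rose from 0 to 1 and from 1 to 2 or 3 UMIs of Slc6a3, and above that the libraries moved in both directions. The nuclei with 8 or more are deeper (a median of 12104 UMIs) than those with none (5230). CPM scales the Drd2 sums for depth, but the bins use raw Slc6a3 UMIs, which also depend on depth. The share of depth in the rise was not tested. Bins of 1 UMI in female 2 and male 1 held 13 nuclei each, and male 1 held 16 and 15 nuclei at 2 to 3 and at 4 to 7.

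**Figure D4:**
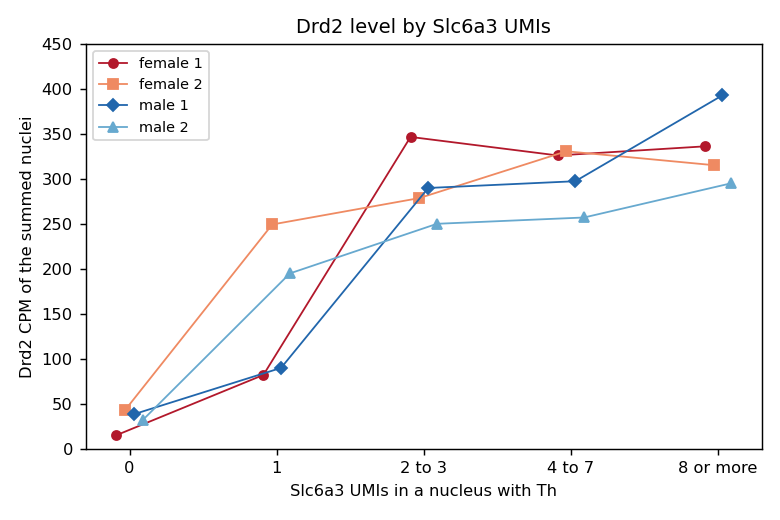
Drd2 level in CPM of summed nuclei with Th, by the number of Slc6a3 UMIs in the nucleus, with 1 line per library. The level rose from 15.0 to 43.0 CPM with no Slc6a3 UMI to 250 to 347 CPM at 2 to 3 UMIs in the 4 libraries.

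A set of 230 nuclei had at least 2 Th UMIs, none of Slc6a3 and under 2 of Gad1. They held 498 CPM of Ddc, the decarboxylase that makes dopamine, and 226 CPM of Slc17a6, and 42.2% of them met the glutamate gate. Their Drd2 level was 37.6 and 85.8 CPM in female 1 and female 2 and 71.4 and 60.2 in male 1 and male 2, above that of glutamate nuclei and below that of dopamine nuclei in each library. Drd3 had 9 UMIs in them, Drd4 had 2 and Drd1 had 1.

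Within GABA nuclei Drd2 was uneven. Nuclei were split by UMIs of Lum, Isl1, Gata3 and Meis2, chosen after their values were seen, taking the first of these that a nucleus had. The 475 nuclei with none of the 4 genes were 43.8% of GABA nuclei and held 81.1% of their Drd2 UMIs. Their Drd2 level was 67.3 and 28.7 CPM in female 1 and female 2 and 26.1 and 34.9 in male 1 and male 2. The 225 nuclei with Gata3 held 10.5, 8.08, 16.4 and 11.3 CPM. The 188 with Meis2 had 7 Drd2 UMIs, the 116 with Lum had 3 and the 81 with Isl1, of which 58 came from male 1, had 1. Since the 4 genes were chosen on these values, the split is a description and has no test.

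Nuclei with Lum or Isl1 at 0 UMIs of Drd2 in a library cannot be called free of it, since 3 UMIs would be 13.1 to 16.4 CPM in the 3 libraries where Lum nuclei had none. For Isl1 nuclei the same floor is 77.7 CPM in female 2, with 4 nuclei, 5.79 CPM in male 1 and 47.0 CPM in male 2, so that in female 2 and male 2 it lies above the level of the nuclei with none of the 4 genes. Drd3 over the same split was 6.11 ± 3.81 CPM in nuclei with none of the 4 genes and 7.36 ± 3.88 in those with Gata3 (SD, n = 4 libraries).

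Within glutamate nuclei the uneven receptor was Drd3. The 319 nuclei with Sim1 or Foxb1, transcription factors of hypothalamic and mammillary neurons that were likewise chosen after their values were seen, were 21.4% of glutamate nuclei and held 54.3% of their Drd3 UMIs. Drd3 there was 32.9 and 14.4 CPM in female 1 and female 2 and 40.2 and 29.7 in male 1 and male 2, and the 25 nuclei of female 2 rest on 4 UMIs. The 397 nuclei with C1ql1, a synaptic organiser, held 3.37, 5.67, 5.16 and 1.04 CPM, and the 359 with Lmx1a, a factor of the midbrain floor plate lineage, held 4.80, 11.1, 8.26 and 7.30 CPM. The 413 with none of these genes held 18.9, 9.58, 13.9 and 17.1 CPM. This split, too, is a description with no test. Drd2 means over the same subsets ranged from 15.2 ± 2.31 CPM with C1ql1 to 26.2 ± 11.7 with Sim1 or Foxb1.

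**Figure D5:**
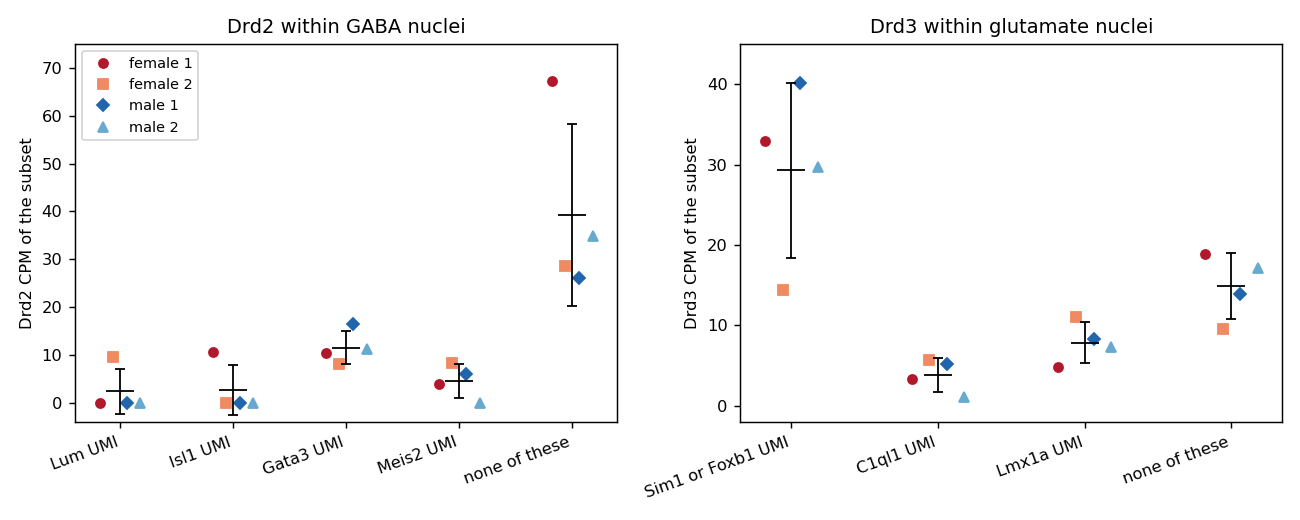
Drd2 level in subsets of GABA nuclei (left) and Drd3 level in subsets of glutamate nuclei (right), in CPM of the summed subset, with 1 symbol per library and the mean with its SD over 4 libraries in black. Drd2 was 26.1 to 67.3 CPM in GABA nuclei with none of the 4 genes, and Drd3 was 14.4 to 40.2 CPM in glutamate nuclei with Sim1 or Foxb1.

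GABA nuclei with a Drd2 UMI were then compared with those without one across all genes. There were 112 with and 973 without, at least 15 with per library, and 308 genes differed (143 higher and 165 lower, 2.94% of 10472 tested, edgeR). Nuclei with a UMI are deeper, with library medians of 7497 to 10149 UMIs against 6187 to 8002, and the sums are scaled for depth but both sides are not matched on it. Higher in nuclei with Drd2 were Msn, which links membrane to actin (27.2 against 3.82 CPM, log2 2.81 ± 0.472), the repressor Zeb2 (392 against 104 CPM, 1.96 ± 0.135), AABR07059563.1 (31.1 against 8.39 CPM, 1.94 ± 0.366) and the KIT ligand gene Kitlg (210.0 against 62.0 CPM, 1.84 ± 0.165). Their edgeR adjusted p was at most 0.000859 and each was higher in 4 of 4 libraries. Zeb2 was 229 to 518 CPM in nuclei with Drd2 and 54.5 to 127 CPM without, with no overlap.

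Lower in GABA nuclei with Drd2 were Hdc, which makes histamine, at 1.08 against 67.1 CPM (log2 -4.95 ± 0.525), Lum at 1.79 against 56.2 CPM (-4.85 ± 0.544) and the factor Isl1 at 0.539 against 23.8 CPM (-4.54 ± 0.776), with edgeR adjusted p of at most 0.000233. Lum, Isl1 and Meis2 (231 against 681 CPM, log2 -1.68 ± 0.173, edgeR adjusted p = 3.26e-08) are seen here in the same nuclei as in the split above, so these are not separate support for it. Gata3, the other gene of that split, was 29.2 against 50.8 CPM and not called (log2 -0.98 ± 0.314, edgeR adjusted p = 0.108). The GABA genes Gad1, Gad2 and Slc32a1 were not called and differed by log2 -0.05 to -0.03. Both sides were gated on at least 2 Gad1 UMIs, so the small Gad1 difference does not show that they are alike. Dopamine transcripts were low on both sides: Slc6a3 was 2.34 against 2.96 CPM and Th 10.3 against 5.71 CPM. Of genes of striatal projection neurons, which carry Drd2 in another brain region, Rgs9 (7.75 against 23.2 CPM) was tested and not called. Adora2a, Ppp1r1b and Gpr6 were too low to test, at 0, 0.539 and 1.80 CPM with Drd2. The number of genes called higher fell to 94 without female 1 and to 95 without male 2, and the number lower to 105 without male 2. DESeq2 called 93 higher and 75 lower.

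Glutamate nuclei were split by Drd2 in the same way. There were 160 with and 1328 without, and 29 genes were called (14 higher and 15 lower, 0.266% of 10904 tested, edgeR). Npsr1, the neuropeptide S receptor, was higher (76.3 against 27.4 CPM, log2 1.65 ± 0.227, edgeR adjusted p = 1.89e-05), as were Epha7, an ephrin receptor (0.61 ± 0.107), Sh3gl3 (0.55 ± 0.119), Il1rapl2 (0.52 ± 0.0987) and Cpne8 (0.49 ± 0.111), all in 4 of 4 libraries. Igfbp5 (-1.61 ± 0.347), AABR07049085.1 (-1.53 ± 0.353) and Nts, the neurotensin precursor (-1.53 ± 0.309), were lower with edgeR adjusted p of at most 0.0405. C1ql1 was 61.8 against 136 CPM (log2 -1.08 ± 0.157, edgeR adjusted p = 5.25e-05). Gad2 was higher, at 46.8 CPM with Drd2 (log2 1.01 ± 0.217, edgeR adjusted p = 0.0195) and higher in 3 of 4 libraries, a call that held in 4 of 8 alternatives. Slc32a1, the GABA transporter of synaptic vesicles, had the opposite sign at 2.85 against 13.4 CPM (log2 -1.94 ± 0.525, edgeR adjusted p = 0.127), lower in 4 of 4 libraries and not called. Th was 28.6 against 35.5 CPM and was not called. Library medians of depth were 9151 to 11976 UMIs with and 6824 to 9226 without. The count of genes called higher fell to 3 without male 1 and 7 without male 2, and that of genes called lower to 8 without female 1 and 5 without male 1, and Epha7 alone of the 8 genes named from this contrast (Npsr1 to Nts) was called in all 8 alternatives.

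Glutamate nuclei with a Drd3 UMI were compared with those without one, a comparison added after the data had been seen. There were 132 with and 1356 without, with library medians of 8564 to 11590 and 6885 to 9212 UMIs, and 771 genes were called (416 higher and 355 lower, 7.16% of 10767 tested, edgeR). The unconventional myosins Myo5b (364 against 72.4 CPM, log2 2.39 ± 0.142) and Myo1e (85.5 against 17.1 CPM, 2.47 ± 0.251), the protease Bace2 (45.3 against 6.52 CPM, 2.84 ± 0.315), Ostf1 (2.22 ± 0.268) and the matrix protein tenascin C, Tnc (2.20 ± 0.295), led the increases. Each was higher in 4 of 4 libraries, with an edgeR adjusted p of at most 6.71e-07. Sox6 (7.79 against 47.9 CPM, log2 -3.15 ± 0.425), Bnc2 (4.80 against 52.5 CPM, -3.03 ± 0.429) and the guidance ligand Sema3e (log2 -3.00 ± 0.325) were lowest, with edgeR adjusted p of at most 2.01e-06.

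Sim1 was 86.5 against 41.0 CPM (log2 1.23 ± 0.185, edgeR adjusted p = 7.05e-06, higher in 3 of 4 libraries) and Foxb1 15.7 against 4.45 CPM (1.81 ± 0.478, edgeR adjusted p = 0.0115, called in 6 of 8 alternatives), in the same nuclei as in the split by those genes. Dopamine synthesis genes were lower in nuclei with Drd3, with Th at 8.35 against 36.9 CPM (log2 -1.94 ± 0.361, edgeR adjusted p = 0.000201) and Ddc at 35.0 against 71.1 CPM (-1.21 ± 0.238, edgeR adjusted p = 0.000404). The GABA genes Gad2 (12.3 against 30.9 CPM, edgeR adjusted p = 0.00478) and Slc32a1 (1.08 against 13.3 CPM, edgeR adjusted p = 0.00313) were lower too, Gad2 in 3 of 4 libraries and Slc32a1 in 4 of 4, and these calls held in 5 and 6 of 8 alternatives. Drd2 was 30.4 against 20.5 CPM and not called (log2 0.47 ± 0.303, edgeR adjusted p = 0.506). The counts fell to 219 higher and 168 lower without male 1 and to 275 and 224 without male 2, and DESeq2 called 252 and 142. The 5 genes named as higher and the 3 as lower were called the same way in all 8 alternatives.

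Drd2 and Drd3 UMIs met in few nuclei. In dopamine nuclei 6 of the 7 nuclei with Drd3 also had Drd2, beside 5.78 from the product of the 2 shares within libraries. In GABA nuclei 3 had both, beside 3.89, and in glutamate nuclei 21 had both, beside 14.5. In nuclei with Slc26a7 and Gad2 1 nucleus had both, beside 1.34. Deeper nuclei have more of any UMI, so counts above the product are a description with no test.

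Many receptor UMIs lay outside the gates. Nuclei that met none held 20.4% of Drd2 and 42.4% of Drd3 UMIs, at 24.4 and 12.2 CPM. Of these 448 Drd2 UMIs, 117 were in 137 nuclei with a Slc6a3 UMI (161 CPM), and 2 were in the 1803 nuclei with no UMI of any neuronal gene checked. Of the 224 ungated Drd3 UMIs, 84 were in 750 nuclei with Slc17a6 but no Th or Slc6a3 (17.8 CPM), 72 were in nuclei with only Snap25 or Rbfox3, pan-neuronal genes, and 4 were in nuclei with no neuronal gene. The nuclei that met more than 1 gate held 12.7% of Drd2 UMIs, at 94.5 CPM. Among them 23 met the dopamine gate together with the Slc26a7 and Gad2 gate.

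The other 3 receptors were at the edge of detection. Drd1, the main D1-class receptor of the striatum, had 1 UMI in each of 19 nuclei, 4 and 2 in female 1 and female 2 and 8 and 5 in male 1 and male 2. All 19 had Snap25 or Rbfox3, and their median depth was 8836 UMIs against 2932 over all kept nuclei. There were 6 glutamate, 4 GABA and 1 dopamine nuclei among them, 8 that met no gate and none in a glial gate. The 4 GABA nuclei were all from male 1, and the 6 glutamate nuclei came from all 4 libraries, at 0.266 to 0.581 CPM.

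Drd4, a D2-class receptor, had 1 UMI in each of 16 nuclei, 8 and none in female 1 and female 2 and 3 and 5 in male 1 and male 2. All 16 had Snap25 or Rbfox3, 8 were glutamate and 2 GABA nuclei, 5 met no gate and 1 met more than 1. None was in the dopamine gate alone or in a glial gate alone. In 264 dopamine nuclei a count of 0 allows up to 1.15 CPM. Drd5, the other D1-class gene, had no UMI in any of the 20620 kept nuclei nor in the barcodes that were removed, which allows 0.0360 CPM over all kept nuclei and 0.0145% of nuclei with a UMI. This limit is on UMIs near the annotated 3′ end and covers counting error only. A transcript whose 3′ end lies outside the annotation used would not be counted, and that was not tested.

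Neither Drd2 nor Drd3 passed the test between female and male libraries where it was run, over all kept nuclei and within dopamine (Drd2 alone), GABA and glutamate nuclei. The nuclei with Slc26a7 and Gad2, whose Drd2 was higher in both male than in both female libraries, were not tested between the sexes. Over all kept nuclei Drd2 was 27.6 and 24.1 CPM in the female libraries and 32.3 and 22.7 in the male ones. Drd3 was 7.55 and 3.50 against 8.27 and 6.22. The ranges of the sexes overlapped for both. The log2 differences, female minus male, were -0.05 ± 0.188 and -0.36 ± 0.368 (edgeR adjusted p = 0.970 and 0.909), and 0.0312% of genes were called, 5 of 16036. In dopamine nuclei Drd2 differed by -0.07 ± 0.167 (edgeR adjusted p = 0.994), where 0.0704% of genes were called, and in glutamate nuclei by -0.06 ± 0.285 (edgeR adjusted p = 0.9997), where 0.0558% were. Drd3 in glutamate nuclei differed by -0.20 ± 0.310 and in GABA nuclei by -0.57 ± 0.539 (edgeR adjusted p = 0.898 in the latter).

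In GABA nuclei Drd2 was higher in females by 0.78 ± 0.348 (unadjusted p = 0.0454, edgeR adjusted p = 0.666), in a comparison where 0.103% of genes were called. That difference rests on female 1, at 36.7 CPM, since female 2 at 16.6 CPM lay between male 1 and male 2. Without female 1 it was 0.10 (edgeR adjusted p = 0.973), and without female 2, where the lone female library is assumed to vary like the others, it was 1.24 (edgeR adjusted p = 0.0255). With 2 pools per sex, a missed threshold does not show that the sexes are alike. The p-values measure the spread between these pools.

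The genes whose levels over the 32 sums of gate and library were most like a receptor's were named for Drd2 and Drd3, the 2 with at least 200 UMIs in gated nuclei. For Drd2 they were AABR07011857.2, Nwd2, Clgn, Piezo2 and Chrna6, with Pearson r of 0.931 to 0.937 on log2(CPM + 1) over 9447 candidate genes. Chrna6, a nicotinic receptor subunit of dopamine neurons, was 108 to 124 CPM in dopamine nuclei. For Drd3 they were Nop56, RGD1561161, Fras1, Gpr22 and AABR07048624.1, with r of 0.830 to 0.848 over 9637 candidates. Between Drd2 and Drd3 themselves r was 0.59. The sums share libraries and differ in depth, and the values are a description.

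Components of dopamine receptor signalling were taken from a list of 56 genes in 8 classes, of which 55 were found and 52 passed the filter. Between dopamine and GABA nuclei 14 were higher and 14 lower, where 12% and 14.4% of all genes were, and the list's median log2 difference was -0.09 against -0.04 over all genes. Between dopamine and glutamate nuclei 10 were higher and 14 lower, against 10.2% and 12.3% of all genes, with a median of -0.19 against -0.05. Between dopamine nuclei and those with Slc26a7 and Gad2 11 were higher and 4 lower (2 lower without female 2), against 6.31% and 3.68%, with a median of 0.11 against 0.09. The 3 comparisons share the dopamine sums, and 9 genes were higher and 3 lower in each of them.

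The inhibitory G protein subunit Gnai1, which D2-class receptors can use, was 246 CPM in dopamine nuclei, 87.1 in GABA and 92.4 in glutamate nuclei (log2 1.54 ± 0.103 and 1.43 ± 0.0990, edgeR adjusted p at most 2.01e-16). Gnai2, Gnai3 and Gnao1 were not called in these 2 comparisons, and Gnaq was higher in both by 0.80 ± 0.0953 and 0.75 ± 0.0938. Among the potassium channel subunits opened by D2 receptors, Kcnj6 (GIRK2) was 232 CPM in dopamine against 25.8 in GABA and 62.9 in glutamate nuclei (log2 3.19 ± 0.148 and 1.93 ± 0.126). Kcnj5 was 18.2 against 4.67 and 5.94 CPM. It had no UMI in nuclei with Slc26a7 and Gad2, where 3 UMIs would be 4.26 CPM, near the GABA level. Kcnj3 went the other way, at 161 CPM against 407 and 511 (log2 -1.29 ± 0.135 and -1.63 ± 0.132), as did Kcnj9. The GIRK subunits thus differed in both directions.

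Of 7 adenylyl cyclases, the enzymes that make cyclic AMP, 3 were lower and 1 higher in dopamine than in GABA nuclei. The same numbers held against glutamate nuclei. Adcy8 was 41.1 CPM in dopamine against 216 in GABA and 366 in glutamate nuclei (log2 -2.33 ± 0.177 and -3.11 ± 0.166), and Adcy2 was 27.3 against 123 and 158 CPM. Adcy5 was higher, at 122 against 89.9 and 95.0 CPM (0.49 ± 0.116 and 0.40 ± 0.112, edgeR adjusted p at most 0.00630). Of the phosphodiesterases, which break down cyclic nucleotides, Pde2a and Pde4d were higher in dopamine nuclei in all 3 comparisons, Pde4d at 4134 CPM against 1940 in GABA nuclei, while Pde1c was lower than in GABA nuclei (52.8 against 318 CPM) and not called against glutamate nuclei. The receptor kinase Grk3 was 121 against 70.5 and 49.9 CPM (0.83 ± 0.133 and 1.32 ± 0.135), and Arrb2, an arrestin, was lower in both, at 2.67 against 8.12 and 8.34 CPM. Rgs8, a regulator of G protein signalling, was 104 CPM against 54.0 and 46.6, and Rgs4 and Rgs10 were lower in both comparisons. Ppp1r1b (DARPP-32), the target of D1 signalling in the striatum, was at most 0.913 CPM in dopamine, GABA and glutamate nuclei and was not called.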

How the data were processed

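Nuclei of the ventral tegmental area were counted in 4 libraries, 2 per sex, each of 3 pooled rats. Values in the deposited matrices are whole-number UMI counts, unnormalized, and the file headers name software version 3.0.2. Cell Ranger and the rn6 build are named in the submitters' processing notes. The shallowest barcode held 501 UMIs. Whether free RNA was removed: not given in the sources used here.

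Barcodes with under 200 genes or over 5% mitochondrial UMIs were removed (6), and the highest Scrublet scores (scanpy 1.11.5) at 0.8% per 1000 barcodes (980). The receptors, gates and gene lists were chosen with earlier results of these data known. CPM scales the summed nuclei of a gate to a common total. Shares with a UMI were thinned to 2000 UMIs. Sums were tested with edgeR 4.0.16 in R 4.3.3 (quasi-likelihood, TMM, low-count filter, library as a term, Benjamini-Hochberg adjusted p under 0.05), with DESeq2 1.42.0 as an alternative. Library values were tested with exact sign-flip tests. A value of 0 is bounded at 3 UMIs. Genes named from nuclei with and without a receptor UMI were the 5 largest increases and 3 largest decreases with at least 20 CPM on the higher side and 1 direction in 4 libraries, plus genes checked for cell type. Some genes that these rules and lists name are not reported here. The splits by Lum, Isl1, Gata3, Meis2, Sim1, Foxb1, C1ql1 and Lmx1a, the steps of Slc6a3 and the Drd3 comparison were added after the data had been seen. Nuclei with and without Drd1, Drd4 or Drd5, and GABA nuclei with Drd3, were not compared, since a library had fewer than 10 with a UMI.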

Additional observations from a re-analysis of the deposited data

Results flagged for a closer look

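The Drd2 level in GABA nuclei of female 1, 36.7 CPM, lay apart from the other 3 libraries, which were at 14.3 to 17.6 CPM. The share of those nuclei with a Drd2 UMI after thinning to 2000 UMIs was 5.56% in female 1 and 2.49% to 2.90% in the others. The gap to the nearest library was 0.852 and 0.865 of the whole range, past the Dixon limit for 4 values, and 16 groups were looked at, of which chance marks about 1 in 20. Both are the same UMIs seen in 2 ways. In female 1 the nuclei with none of Lum, Isl1, Gata3 and Meis2 were 50.2% of GABA nuclei, against 38.4% to 43.8% in the others, and held 67.3 CPM. Whether their share or their level sets the gap was not tested.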

How the results depend on the processing

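The calls of Drd2 in dopamine nuclei against GABA, glutamate, Slc26a7 with Gad2 and oligodendrocyte nuclei held in all 12 alternatives each, with log2 differences of 3.76 to 4.42, 3.58 to 4.10, 1.45 to 2.74 and 6.07 to 8.25. The lower Drd3 of dopamine than glutamate nuclei held in 12 of 12, from -2.85 to -1.61. Drd3 in GABA minus glutamate lost its call with DESeq2 (-1.41), and dopamine minus oligodendrocyte with stricter gates (1.78) and without female 2 (1.96), the lowest of 1.96 to 3.29 over left-out libraries, and 9 of its 11 alternatives kept the call. Drd2 in Slc26a7 with Gad2 minus GABA ran from 1.32 to 2.65 over left-out libraries.

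Differences that were not called changed sign in places. Drd2 in GABA minus glutamate was 0.12 with stricter gates, 0.00073 with DESeq2 and -0.31 to 0.15 over left-out libraries. Drd3 in dopamine minus GABA was -1.47 to 0.054 over left-out libraries, in dopamine minus Slc26a7 with Gad2 0.48 with stricter gates, and in Slc26a7 with Gad2 minus GABA -1.54 with stricter gates and -0.082 with nuclei kept in every gate. With nuclei kept in every gate, Drd2 by Calb1 was -0.021, and female minus male Drd2 was 0.025 in dopamine and 0.042 in glutamate nuclei.

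Over left-out libraries female minus male Drd2 ran from -0.27 to 0.20 in all nuclei, -0.30 to 0.21 in dopamine, 0.10 to 1.24 in GABA and -0.66 to 0.28 in glutamate nuclei, and Drd3 from -0.98 to 0.076 in all and -0.74 to 0.10 in glutamate nuclei. A lone library there is assumed to vary like the others. With the replicate block, the female minus male Drd2 difference in dopamine nuclei was -0.06 and in GABA nuclei 0.79, and no receptor call changed. Genes called rose from 5 to 7 in all nuclei, 6 to 8 in dopamine, 12 to 105 in GABA and 7 to 22 in glutamate nuclei under the block. The labels give the pools only a number in common, and with 2 numbers and correlations of deviations of 0.08 to 0.29 the pairing was not used.

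Thinning to 4000 UMIs gave 67.6% for Drd2 in dopamine and 4.68% for Drd3 in glutamate nuclei, and no thinning 84.5% and 8.76%, since detection rises with depth. The signalling list had 9 lower genes in dopamine minus glutamate without the library term, and 2 to 4 in dopamine minus Slc26a7 with Gad2 over left-out libraries. Genes higher and lower with Drd2 in GABA nuclei were 93 and 75 with DESeq2 and 94 to 139 and 105 to 126 over left-out libraries. With Drd2 in glutamate nuclei they were 5 and 4 with DESeq2 and 3 to 19 and 5 to 17 over left-out libraries, with 43 lower without the low-count filter. With Drd3 in glutamate nuclei they were 252 and 142 with DESeq2 and 219 to 463 and 168 to 429 over left-out libraries. The cause was not tested, other than that fewer nuclei enter. Drd1, Drd4 and Drd5 had too few UMIs to pass the low-count filter.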
